A study of Mus musculus with 4 samples.

Results

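The miR-15/16 family is a group of microRNAs (miRNAs) with a common seed, the stretch at bases 2 to 8 of the guide strand through which a miRNA recognises its target mRNAs. Its members were taken by name from the table of mature miRNAs. They were the guide strands miR-15a-5p, miR-15b-5p, miR-16-5p, miR-195a-5p and miR-497a-5p, together with miR-15b-3p, the other arm of the miR-15b hairpin. This gave 6 of the 1907 miRNAs listed, and all 6 had reads in every library.

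A miRNA hairpin is cut into a pair of arms, one of which (the guide) is usually kept by Argonaute and directs the silencing of mRNAs with a matching site, while the other is mostly degraded. Family guides are best known as brakes on the cell cycle, since their targets include cyclins of the G1 phase and their partner kinases, and on survival through the anti-apoptotic gene Bcl2. The miR-15a and miR-16 pair lies in the Dleu2 host transcript, a region that is often lost in chronic lymphocytic leukaemia. Embryonic stem (ES) cells divide quickly with a short G1 phase, and their most abundant miRNAs belong to other families.

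Small RNA-seq was performed on ES cells of the mouse line E14Tg2A (strain 129/Ola) at day 0 and on epiblast-like aggregates (ELA) made from them, at day 2. ES cells were grown on gelatin either with fetal calf serum and leukemia inhibitory factor (LIF), called serum, or for 3 to 5 passages in 2iL, a serum-free medium with N2/B27, LIF, the MEK inhibitor PD0325901 and the GSK3 inhibitor CHIR99021. ELA cells were floating aggregates of ES cells from serum or from 2iL, kept in a chemically defined minimal medium with N2/B27, to which no LIF or inhibitor is listed as added, so that the medium name of an ELA library is that of its starting cells. Each of the 4 combinations is 1 library of RNA pooled from 3 sets of experiments, all from 1 cell line. No spread between cultures can therefore be measured, and differences between a pair of libraries had no replicate check. The ES libraries held 8056984 reads (serum) and 2767016 reads (2iL), and the ELA libraries 4309257 (serum) and 587363 (2iL), so that values of ELA 2iL are the least precise.

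The stage and medium of each library come from its title and source name. A free-text description in the labels exchanges the ES 2iL and ELA serum libraries. Under that reading the contrasts of stage and medium given here would change places. The cluster of miR-302 and miR-367, a marker of the primed state, held 0.595% (serum) and 0.00784% (2iL) of reads in the ES libraries and 3.73% (serum) and 0.708% (2iL) in the ELA libraries. The cluster of miR-290 to miR-295, a marker of naive cells, held 8.61% and 18.3% in ES and 5.55% and 14.1% in ELA, serum first. These shares cover 11 of its 16 listed arms, since both arms of miR-290a and of miR-292a and miR-292b-5p were listed at 0 in every library. As miR-290 and miR-292 are known as abundant in ES cells, a listed 0 in this table does not show that a miRNA was absent. The lowest level of the primed cluster was thus in the library titled ES 2iL and the highest in that titled ELA serum. From ES to ELA in serum its share goes from 0.595% to 3.73% by the titles and from 0.595% to 0.00784% by the description. The labels of the other pair, ES serum and ELA 2iL, agree throughout, and miR-16-5p was 2.68-fold higher in ELA 2iL than in ES serum (exact 95% interval 2.63 to 2.74), whichever description is used. In the same pair miR-15b-5p was 2.32-fold higher, miR-15a-5p 1.98-fold, miR-15b-3p 1.66-fold and miR-195a-5p 1.49-fold. The interval of miR-497a-5p held no change (1.22-fold, 0.975 to 1.51). This pair differs in both stage and medium, so its folds belong to neither alone. They compare shares of all miRNA reads, and no other scaling of the libraries was applied to this pair.

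The mature sequences show what the family shares and where its members part. They are RefSeq mature miRNAs, written 5′ to 3′, with bases 2 to 8 in capitals.
mmu-miR-16-5p: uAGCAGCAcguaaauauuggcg
mmu-miR-195a-5p: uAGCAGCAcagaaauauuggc
mmu-miR-15a-5p: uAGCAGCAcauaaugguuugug
mmu-miR-15b-5p: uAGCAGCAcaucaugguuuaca
mmu-miR-497a-5p: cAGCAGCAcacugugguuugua
mmu-miR-322-5p: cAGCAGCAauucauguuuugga
mmu-miR-15b-3p: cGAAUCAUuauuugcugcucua
The 5 guides had the same seed, and the 15b-3p arm, shown last, had a different one and so is a member by its hairpin only. After base 8, miR-195a-5p equalled miR-16-5p at 11 of 13 positions, miR-15a-5p at 8 of 14, miR-15b-5p at 6 of 14 and miR-497a-5p at 4 of 14. Of the 1907 listed miRNAs 1623 had a RefSeq sequence, and 10 of these held the family seed. The 5 outside the named members were miR-322-5p, shown above because it was the only one of them with reads, and miR-195b, miR-6342, miR-6353 and miR-6419, which were listed at 0 in all 4 libraries and whose levels are therefore not known.

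The guides come from 3 places in the genome (mm9, the build used by the authors). Mir15b (chr3:68813694-68813757) and Mir16-2 (chr3:68813824-68813918) lie on the plus strand in an intron of Smc4, a condensin subunit gene on the same strand. Mir16-1 (chr14:62250717-62250809) and miR-15a-5p (chr14:62250912-62250933) lie on the minus strand in an intron of the long non-coding RNA gene Dleu2, also on the same strand. Mir497 (chr11:70048219-70048302) and Mir195a (chr11:70048544-70048637) lie between annotated genes on the plus strand. The miR-16-5p sequence is identical from the Smc4 and Dleu2 copies, so its reads cannot be divided between them. How reads with several places of origin were counted was not stated.

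The family as a whole was more abundant in the libraries from 2iL than in those from serum, at both stages. Among ES cells its summed reads were 0.746% of all miRNA reads in serum (Wilson 95% interval 0.740 to 0.752) and 2.83% in 2iL (2.81 to 2.84). Among ELA cells they were 0.972% (0.963 to 0.981) with serum origin and 1.93% (1.89 to 1.96) with 2iL origin. The summed level was 3.79-fold higher in 2iL than in serum in ES cells (exact 95% interval 3.75 to 3.83) and 1.98-fold higher in ELA cells (1.94 to 2.02). Between stages the sum was 1.30-fold higher in ELA than in ES cells in serum (1.29 to 1.32) and 1.47-fold lower in 2iL (1.44 to 1.50). These intervals cover counting error only. In whole cultures, fewer cells that hold a miRNA and less of it in each cell cannot be told apart.

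The sum followed miR-16-5p, which gave 85.9% (serum) and 93.4% (2iL) of the family's reads in ES cells and 89.4% (serum) and 89.3% (2iL) in ELA cells. Levels are given in RPM, reads of a miRNA per 1000000 miRNA reads of the library. Without miR-16-5p the other 5 members summed to 1049 RPM in ES serum, 1034 RPM in ELA serum, 1868 RPM in ES 2iL and 2055 RPM in ELA 2iL. The serum libraries were then nearly level, and the ELA 2iL library was above the ES 2iL library rather than below it.

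**Figure D1:**
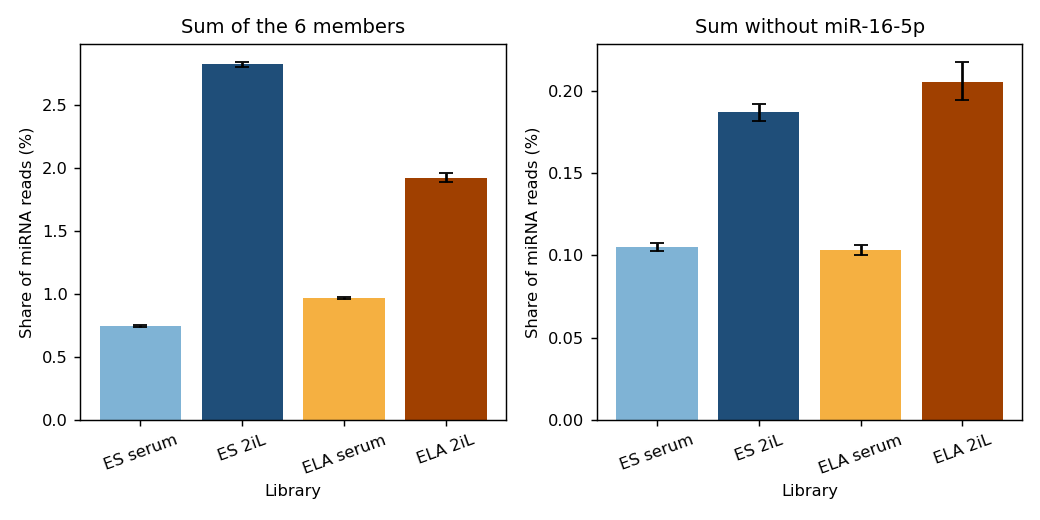
Share of all miRNA reads (%, y axis) held by the 6 members together (left) and without miR-16-5p (right) in each of the 4 libraries (x axis), with Wilson 95% intervals for counting error. The left bars run from 0.746% in ES serum to 2.83% in ES 2iL, and on the right ELA 2iL is highest at 0.205%.

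miR-16-5p was the most abundant member in every library. In ES cells its level was 6408 RPM with serum (51631 reads) and 26385 RPM with 2iL (73008 reads), and in ELA cells it was 8684 RPM with serum (37421 reads) and 17195.5 RPM with 2iL (10100 reads). Both 2iL libraries were above both serum libraries. By level it stood 24th (serum) and 8th (2iL) of the 1907 listed miRNAs in ES cells and 17th and 9th in ELA cells, and no neighbouring pair in the order of the 4 libraries overlapped in counting error. The level was 4.12-fold higher in 2iL than in serum in ES cells (4.07 to 4.16) and 1.98-fold higher in ELA cells (1.94 to 2.02). From ES to ELA it was 1.36-fold higher in serum (1.34 to 1.37) and 1.53-fold lower in 2iL (1.50 to 1.57).

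miR-15a-5p, the partner of miR-16 in Dleu2, had the same order of libraries at a far lower level. The serum libraries were at 170.0 RPM in ES (1370 reads) and 207 RPM in ELA cells (891 reads), and the 2iL libraries at 696 RPM in ES (1926 reads) and 337 RPM in ELA cells (198 reads). Its difference between 2iL and serum ES cells, 4.09-fold (3.82 to 4.39), had an interval that overlapped that of miR-16-5p. In ELA cells the 2iL library was 1.63-fold above serum (1.39 to 1.90). From ES to ELA the level was 1.22-fold higher in serum (1.12 to 1.32) and 2.06-fold lower in 2iL (1.78 to 2.40).

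miR-15b-5p, the guide of the Smc4 pair, was highest in ELA 2iL instead. With serum it was at 513 RPM in ES (4131 reads) and 463 RPM in ELA cells (1994 reads), and with 2iL at 787 RPM in ES (2179 reads) and 1188 RPM in ELA cells (698 reads). The 2iL libraries were again above the serum libraries, by 1.54-fold in ES cells (1.46 to 1.62) and 2.57-fold in ELA cells (2.35 to 2.80). From ES to ELA it was 1.11-fold lower in serum (1.05 to 1.17) and 1.51-fold higher in 2iL (1.38 to 1.64). In 2iL this is opposite in direction to miR-15a-5p and miR-16-5p. In serum the log2 value of -0.15 was -0.04 under TMM scaling and 0.05 under DESeq2 size factors, so the direction there rests on the scaling.

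miR-15b-3p, the arm cut from the same hairpin, was at 103 RPM (827 reads) and 89.8 RPM (387 reads) in the serum libraries, ES first, and at 213 RPM (589 reads) and 170.3 RPM (100 reads) in the 2iL libraries. Like its guide it was higher in the 2iL libraries, by 2.07-fold in ES cells (1.86 to 2.31) and 1.90-fold in ELA cells (1.51 to 2.37). In RPM the ES 2iL level was 1.25-fold above that in ELA 2iL (1.01 to 1.56). This log2 value of -0.32 for ELA minus ES was between -0.09 and -0.07 under the 3 other scalings, so the size of this gap rests on the scaling.

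miR-195a-5p had the pattern least like the others. ES cells had 137 RPM in serum (1103 reads) and 56.7 RPM in 2iL (157 reads), and ELA cells had 160 RPM from serum (688 reads) and 204 RPM from 2iL (120 reads). The ES 2iL library, where the family sum was highest, was the lowest for this member. In ES cells the level was 2.41-fold lower in 2iL than in serum (2.04 to 2.87), and from ES to ELA cells of 2iL origin it was 3.60-fold higher (2.82 to 4.60). The remaining differences were smaller, 1.17-fold higher in ELA than in ES cells in serum (1.06 to 1.28) and 1.28-fold higher in 2iL than in serum in ELA cells (1.05 to 1.56). The direction of the latter rests on the scaling, since its log2 value of 0.35 was 0.0063 under TMM scaling and -0.0066 under DESeq2 size factors.

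miR-497a-5p, made from the neighbouring hairpin, had the narrowest range of RPM. ES cells had 127 RPM in serum (1022 reads) and 115 RPM in 2iL (318 reads), and ELA cells had 115 RPM from serum (Wilson 95% interval 105.6 to 125.9) and 155 RPM from 2iL (91 reads). ES serum could not be told from ES 2iL (1.10-fold, 0.972 to 1.26) or from ELA serum (1.10-fold, 0.987 to 1.23) within counting error of RPM. The first of these holds for RPM only, since its log2 value for 2iL minus serum was -0.14 in RPM, inside an interval of -0.33 to 0.04, but -0.63 under TMM scaling, -0.53 under DESeq2 size factors and -0.42 with totals without the 5 most abundant miRNAs. ELA 2iL was 1.34-fold above ELA serum (1.06 to 1.68) and 1.35-fold above ES 2iL (1.06 to 1.71). The difference between the ELA libraries was 0.42 on the log2 scale and 0.08 and 0.06 under TMM scaling and DESeq2 size factors.

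**Figure D2:**
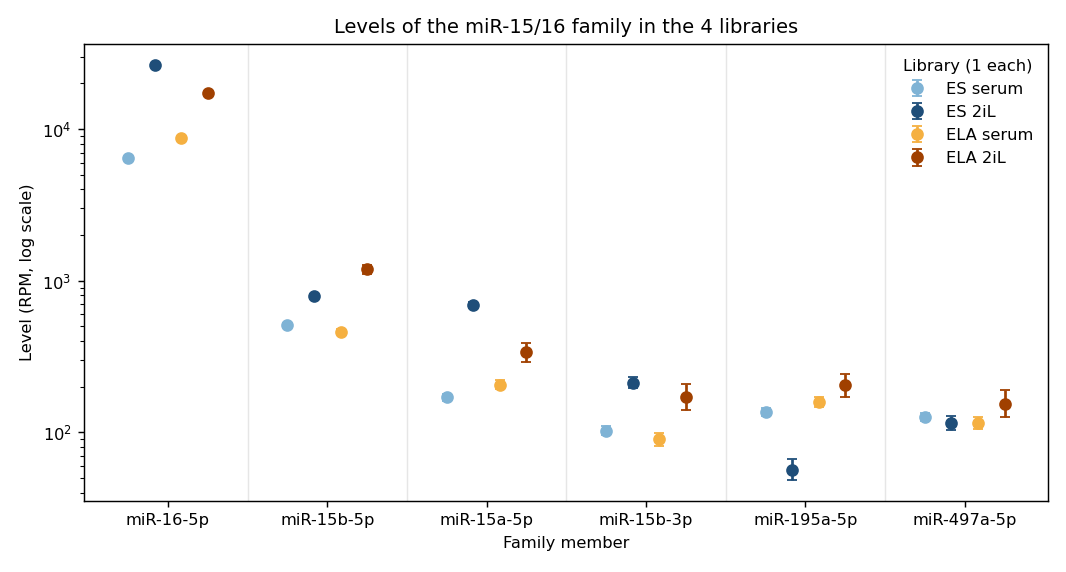
Level of each member (x axis) in RPM (y axis, log scale) in the 4 libraries, 1 library per group, with Wilson 95% intervals for counting error that are mostly smaller than the points. The dark 2iL points lie above the light serum points for miR-16-5p, miR-15b-5p, miR-15a-5p and miR-15b-3p, while miR-195a-5p has its lowest point, 56.7 RPM, in ES 2iL.

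In RPM a wider difference between the libraries accompanies these values. Expressed miRNAs were taken as the 302 whose log2(RPM + 1) averaged at least 5. Their median log2 difference between 2iL and serum depended on the scaling. It was -0.05 in ES and 0.02 in ELA cells under TMM scaling, and 0.04 and 0.0063 under DESeq2 size factors. With totals without the 5 most abundant miRNAs it was 0.16 and 0.41. In RPM it was 0.44 in ES cells and 0.37 in ELA cells. The corresponding medians over the 6 members were 0.83 and 0.81. With that median subtracted, the ES difference between 2iL and serum was 1.60 for miR-16-5p, 1.59 for miR-15a-5p, 0.61 for miR-15b-3p and 0.18 for miR-15b-5p on the log2 scale, and it was -1.69 for miR-195a-5p and -0.58 for miR-497a-5p. In ELA cells it was 0.99 for miR-15b-5p, 0.62 for miR-16-5p, 0.55 for miR-15b-3p and 0.33 for miR-15a-5p, and near 0 for miR-497a-5p (0.05) and miR-195a-5p (-0.01). For ELA minus ES, the median over the expressed miRNAs was 0.00 in serum and -0.17 in 2iL, against 0.04 and 0.05 over the members.

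A difference of at least 1 on the log2 scale was counted in each direction. In ES cells 3 of 6 members (miR-15a-5p, miR-15b-3p and miR-16-5p) were higher in 2iL by that much, where 30.8% of the expressed miRNAs were, and 1 (miR-195a-5p) was lower, against 17.5%. In ELA cells 1 member (miR-15b-5p) was higher in 2iL, against 22.2%, and none was lower, against 8.61%. From ES to ELA none passed in serum, where 8.61% of the expressed miRNAs were higher and 15.6% lower. In 2iL 1 member (miR-195a-5p) was higher, against 18.9%, and 1 (miR-15a-5p) was lower, against 23.5%. With 6 members, none of these counts stands far from the share among the expressed miRNAs. Under other scalings of the libraries the miR-15a-5p difference from ES to ELA in 2iL (-1.04) was between -0.81 and -0.80, and that of miR-15b-3p between 2iL and serum ES cells (1.05) was between 0.56 and 0.77, so these members were then no longer counted. In ELA cells the difference of miR-15b-5p between media (1.36) was 0.997 under DESeq2 size factors, and that of miR-16-5p (0.99) was 1.03 with library totals taken without the 5 most abundant miRNAs.

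**Figure D3:**
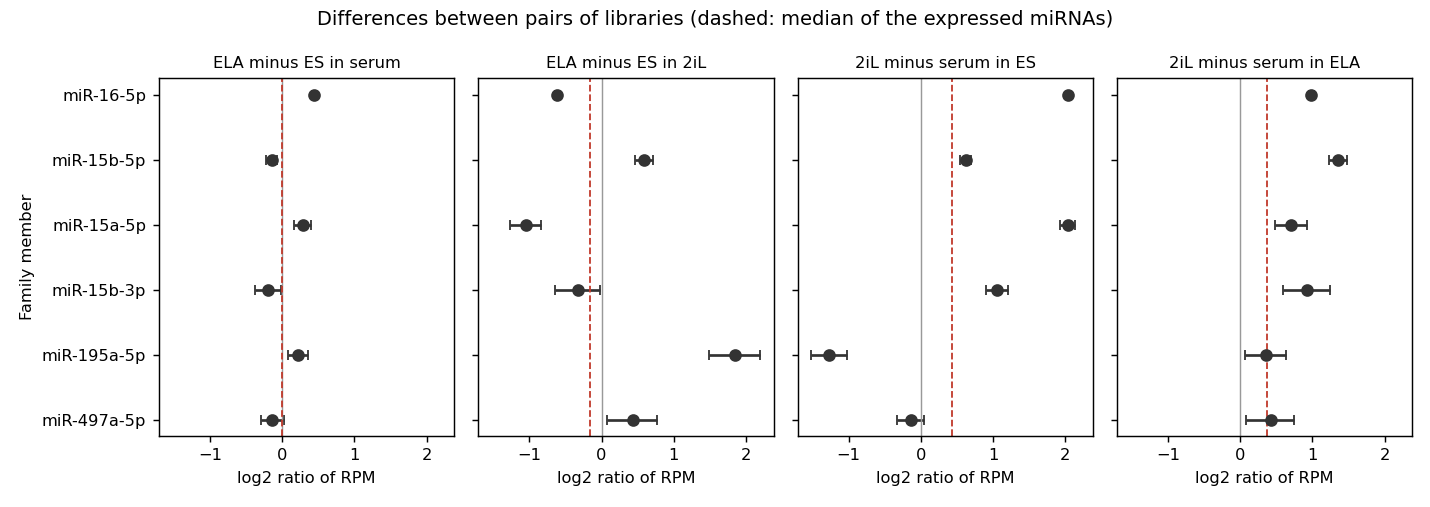
Log2 ratio of RPM (x axis) for each member (y axis) in the 4 comparisons of a pair of libraries, with exact 95% intervals for counting error. The dashed line is the median log2 difference of the 302 expressed miRNAs, and miR-195a-5p lies farthest from it in ELA minus ES in 2iL and, on the other side, in 2iL minus serum in ES.

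The only test with an error term treats the media as replicates of stage and the stages as replicates of medium, over all 4 libraries, which leaves 1 residual degree of freedom per miRNA. In the limma fit on log2(RPM + 1), the mean difference between 2iL and serum was 1.51 ± 0.50 (SE) for miR-16-5p, with an adjusted p = 0.143, and 1.36 ± 0.53 for miR-15a-5p, with an adjusted p = 0.173. It was 0.99 ± 0.47 for miR-15b-5p (adjusted p = 0.233), 0.98 ± 0.44 for miR-15b-3p (adjusted p = 0.212), -0.45 ± 0.57 for miR-195a-5p (adjusted p = 0.631) and 0.14 ± 0.46 for miR-497a-5p (adjusted p = 0.847). None of the 6 passed the threshold of 0.05, and the value of miR-497a-5p turned to -0.28 under TMM scaling and -0.24 under DESeq2 size factors. The mean of ELA minus ES was 1.03 ± 0.57 for miR-195a-5p (adjusted p = 0.336) and lay between -0.38 and 0.22 for the other 5, with adjusted p from 0.707 to 0.935. For miR-16-5p it was -0.09 ± 0.50, and it was above 0 (0.09 and 0.12) under TMM scaling and DESeq2 size factors.

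Those results need the background of the whole table. The limma test called 0 of the 599 miRNAs tested in either contrast (0%), although 125 for stage and 176 for medium had an unadjusted p under 0.05. Among these the medium contrast of miR-16-5p was the only one of a member. edgeR on the recovered reads called 39 for stage (6.51%) and 64 for medium (10.7%), and DESeq2 called 50 and 80, with no member among them. An absence of calls therefore leaves the differences between libraries described and not tested across cultures.

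The change from ES to ELA differed in sign between media for 4 of 6 members, namely miR-15a-5p, miR-15b-5p, miR-16-5p and miR-497a-5p. The same was true of 85 of the 302 expressed miRNAs (28.1%). The set depends on the scaling. Under DESeq2 size factors the values in serum of miR-15b-5p (0.05) and miR-497a-5p (0.06) had the sign of those in 2iL, while miR-15b-3p had 0.0030 in serum and -0.09 in 2iL. The interval of miR-497a-5p in serum also held no change. miR-15a-5p and miR-16-5p kept opposite signs under all 3 other scalings. The change in 2iL minus the change in serum was 1.61 for miR-195a-5p, 0.74 for miR-15b-5p, 0.56 for miR-497a-5p, -0.13 for miR-15b-3p, -1.06 for miR-16-5p and -1.32 for miR-15a-5p on the log2 scale. The median size of this value over the expressed miRNAs was 0.67, and 13.2% of them had a larger one than miR-195a-5p, 18.9% than miR-15a-5p and 27.5% than miR-16-5p. Guides with the same seed thus had values of opposite sign. With 1 library per group the difference itself was not tested.

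Ratios between members within a library do not depend on how libraries are scaled. The ratio of miR-16-5p to miR-15a-5p reads was 37.7 (Wilson 95% interval 35.7 to 39.8) in serum and 37.9 (36.2 to 39.7) in 2iL for ES cells, and 42.0 (39.3 to 44.9) and 51.0 (44.3 to 58.7) for ELA cells. It was the same within counting error in the ES libraries, although both miRNAs were about 4-fold apart between them. The ratio of miR-16-5p to miR-15b-5p, by contrast, was 12.5 (12.1 to 12.9) and 33.5 (32.1 to 35.0) in ES cells and 18.8 (17.9 to 19.6) and 14.5 (13.4 to 15.6) in ELA cells, serum first, with ES 2iL well above the rest. miR-15b-5p outnumbered miR-15a-5p by 3.02 to 1 in ES serum, 2.24 in ELA serum and 3.53 in ELA 2iL, but by only 1.13 in ES 2iL. Absolute ratios between different miRNAs also carry the unequal efficiency with which sequences enter a small RNA library, so the comparison here is of one ratio across libraries.

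At the third locus, miR-195a-5p and miR-497a-5p did not keep a fixed ratio. In ES cells there were 1.08 reads of miR-195a-5p per read of miR-497a-5p in serum (0.991 to 1.18) and 0.494 in 2iL (0.408 to 0.598). In ELA cells there were 1.38 with serum origin (1.23 to 1.55) and 1.32 with 2iL origin (1.01 to 1.73). ES 2iL was the only library in which miR-497a-5p was the more abundant of the pair.

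The arms of a hairpin are made in equal numbers, so their ratio in a library reflects what is kept, together with how well each sequence enters the library. Within the miR-15b hairpin, the 5p arm gave 83.3% (82.3 to 84.3) and 83.7% (82.2 to 85.2) of reads in ES and ELA cells of serum, and 78.7% (77.2 to 80.2) and 87.5% (85.0 to 89.6) in those of 2iL. The serum libraries agreed within counting error and the 2iL libraries lay on either side of them. For miR-15a the 5p arm outnumbered the 3p arm by 12.1 (10.0 to 14.7) and 13.3 to 1 (10.4 to 17.0) in ES and ELA cells of serum, and by 19.9 (16.2 to 24.3) and 28.3 to 1 (13.5 to 59.1) in those of 2iL, the last on 7 reads of miR-15a-3p. For miR-195a the same ratio was 5.63 (4.84 to 6.55) and 11.1 (8.56 to 14.4) in serum, ES first, and 8.26 (5.16 to 13.2) and 13.3 (6.86 to 25.9) in 2iL, so the ES serum library had relatively more of the 3p arm than ELA serum. miR-497a-3p was listed at 0 in all libraries, so no ratio is given for that hairpin.

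**Figure D4:**
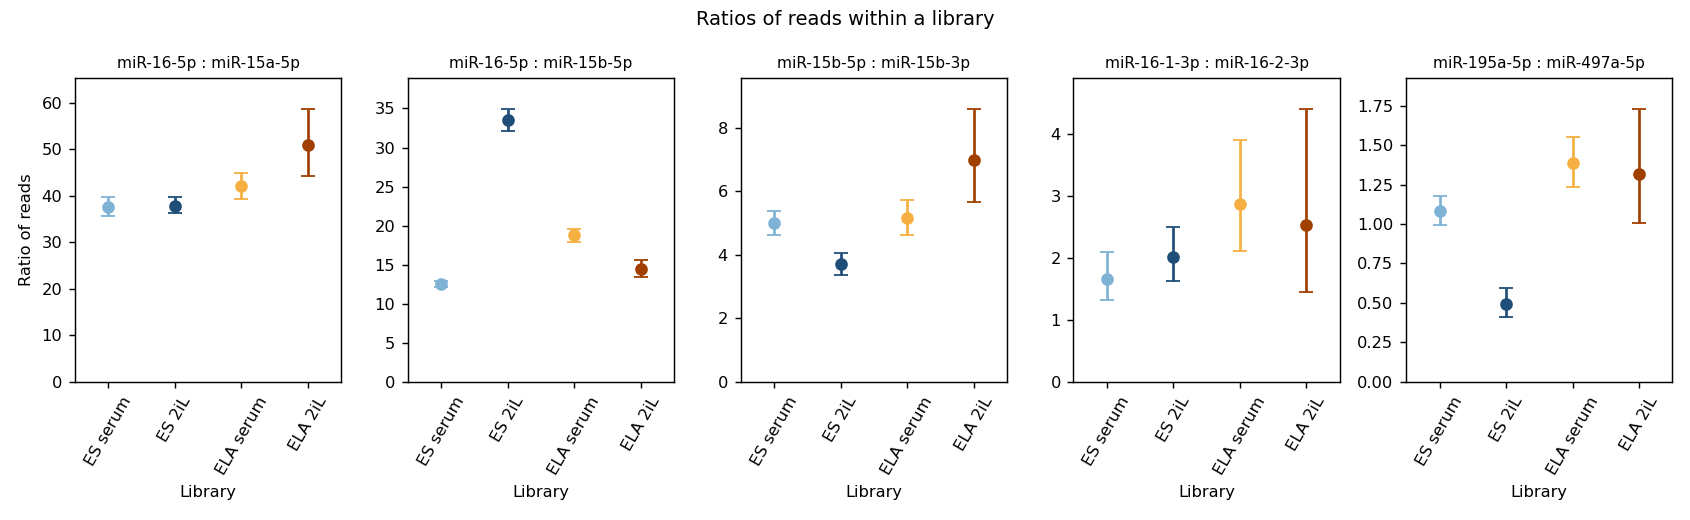
Ratios of reads of 2 miRNAs within each library (y axes, starting at 0; x axis, the 4 libraries), with Wilson 95% intervals for counting error. miR-16-5p to miR-15a-5p runs from 37.7 in ES serum to 51.0 in ELA 2iL. In ES 2iL miR-16-5p to miR-15b-5p reaches 33.5 and miR-195a-5p to miR-497a-5p falls to 0.494.

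The copies of miR-16 differ in their 3p arms, which is the one trace in these reads of the locus of origin, and their sequences are shown for that reason.
mmu-miR-16-1-3p: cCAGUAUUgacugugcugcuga
mmu-miR-16-2-3p: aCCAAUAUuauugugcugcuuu
miR-16-1-3p, from Dleu2, was at 24.6 RPM (198 reads) and 36.7 RPM (158 reads) in ES and ELA cells of serum and at 90.35 RPM (250 reads) and 73.2 RPM (43 reads) in those of 2iL. miR-16-2-3p, from Smc4, was at 14.8 and 12.8 RPM in serum and 44.8 and 28.9 RPM in 2iL, again ES first. Both were higher in the 2iL libraries at each stage, as miR-16-5p was. The Dleu2 arm gave 62.5% (57.0 to 67.6) and 74.2% (67.9 to 79.6) of the reads of the pair in ES and ELA cells of serum, and 66.8% (61.9 to 71.4) and 71.7% (59.2 to 81.5) in those of 2iL. Only ES serum and ELA serum had intervals that did not overlap. In the limma fit the mean difference between 2iL and serum was 1.41 ± 0.48 for miR-16-1-3p (adjusted p = 0.146) and 1.33 ± 0.45 for miR-16-2-3p (adjusted p = 0.146).

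The remaining other arms had few reads. miR-15a-3p was at 14.03 RPM (serum) and 35.1 RPM (2iL) in ES cells and at 15.5 and 11.9 RPM in ELA cells. miR-195a-3p was at 24.3 and 6.87 RPM in ES cells and at 14.4 and 15.3 RPM in ELA cells, and had its lowest value in ES 2iL, like its guide, with a level 3.54-fold below that in ES serum (2.21 to 6.01). A further miRNA, miR-497b, is annotated on the strand opposite to miR-497a-3p and overlaps it (chr11:70048265-70048288, minus, against chr11:70048272-70048292, plus). It had 26 (serum) and 2 (2iL) reads in ES cells and 15 and 0 reads in ELA cells, and as the use of strand in counting was not stated, reads of this pair cannot be told apart with certainty.

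Outside the named members, miR-322-5p carried the family seed. It is made from a separate hairpin on the X chromosome (chrX:50407432-50407526, minus strand) and is the mouse counterpart of human miR-424. In serum it was at 148 RPM in ES (1195 reads) and 222 RPM in ELA cells (958 reads), and in 2iL at 1039.8 RPM (2877 reads) and 763 RPM (448 reads). It had the same order of libraries as miR-16-5p, with a wider gap between media, 7.01-fold in ES cells (6.55 to 7.51) and 3.43-fold in ELA cells (3.06 to 3.84). In limma the mean difference between 2iL and serum was 2.29 ± 0.50 (adjusted p = 0.108), which did not pass, whereas edgeR (adjusted p = 0.0240) and DESeq2 (adjusted p = 0.00603) called it. Of all reads with the seed, miR-322-5p held 1.98% and 2.26% in ES and ELA cells of serum and 3.58% and 3.84% in those of 2iL. miR-503-5p, from the neighbouring hairpin and with a seed that shares only part of the family's, was at 2.73 RPM (serum) and 9.76 RPM (2iL) in ES cells and at 11.1 and 6.81 RPM in ELA cells.

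The pattern of each member over the 4 libraries was compared with every expressed miRNA outside the family, by the Euclidean distance between centred log2(RPM + 1) values. These distances rest on 4 libraries and are a description only. The 3 nearest to the summed family among 296 candidates were miR-16-1-3p (distance 0.223), miR-1839-5p (0.224) and miR-301a-3p (0.230), where the median candidate was at 1.59. miR-322-5p, with the same seed, was 43rd at 0.849. Within the family miR-15a-5p and miR-16-5p were closest (0.354) and miR-15a-5p and miR-195a-5p farthest apart (2.73). The arms of miR-15b were at 0.647, and the neighbours miR-195a-5p and miR-497a-5p at 1.18.

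The nearest 3 to miR-16-5p alone were those of the sum, led by miR-301a-3p (0.207). The nearest to miR-15a-5p was miR-107-3p (0.0864), followed by miR-301a-3p (0.149), with miR-107-3p at 181 RPM (serum) and 704 RPM (2iL) in ES cells and 218 and 371 RPM in ELA cells. For miR-15b-5p it was miR-135b-5p (0.220) and for miR-15b-3p it was miR-34a-5p (0.163). The nearest to miR-195a-5p, miR-377-5p (0.385), lay farther off than the nearest of any other member, where the median candidate was at 2.01. It was followed by miR-370-5p (0.391) and miR-485-3p (0.490). All 3 are encoded in the imprinted Dlk1-Dio3 region and had their lowest level in ES 2iL. miR-497a-5p lay next to miR-130b-5p (0.0542), a miRNA equally flat across these libraries.

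Markers of other cell types were read beside these levels. Of the 5 listed markers of red blood cells, a cell type rich in miR-16, miR-451a was between 1.62 and 3.41 RPM, miR-486a-5p and miR-486b-5p were listed at 0, and the list summed to between 2.78 and 5.11 RPM. Markers of white blood cells summed to 954 RPM in ES and 614 RPM in ELA cells of serum, and to 2191 and 2104 RPM in 2iL. miR-142a-5p made up most of that sum, while miR-142a-3p was listed at 0 and miR-223-3p did not exceed 5.11 RPM. The 6 mesenchymal markers summed to 3186 RPM (serum) and 4871 RPM (2iL) in ES cells and 1487 and 2007 RPM in ELA cells, mostly from miR-143-3p. The 4 neural markers summed to 657 and 871 RPM in ES cells and 477 and 548 RPM in ELA cells. They went different ways in ES cells. From serum to 2iL, miR-9-5p went from 356 to 156 RPM and miR-9-3p from 8.32 to 2.17 RPM. miR-128-3p went from 225 to 570 RPM and miR-124-3p from 68.9 to 142 RPM. In ELA cells only miR-128-3p was higher in 2iL. The white blood cell, mesenchymal and neural sums were all higher in 2iL at each stage, as miR-16-5p was. The endothelial miR-126a-3p and the hepatic miR-122-5p were also listed at 0, which as for the miR-290a and miR-292a arms does not show their absence. The 3 muscle markers summed to between 0 and 73.2 RPM. The part of any of these cell types in the levels of the family or in their differences was not tested.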

How the data were processed

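Small RNA-seq of E14Tg2A ES and ELA cells was analysed from the RPM values that the authors deposited for 1907 mature miRNAs. Per the labels and the study's methods, adaptors were trimmed with Trimmomatic, reads were demultiplexed with CASAVA 1.8 and mapped to mm9 with Bowtie, and miRBase reads were summarised with featureCounts. Versions of the other tools and the treatment of strand and of reads with several origins are not given in the sources used here. RPM is thus a share of the miRNA reads, so a rise of other miRNAs lowers it, and it is no amount per cell.

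All values were whole multiples of 1 read (100%, tolerance 0.01 reads), which gave back the reads. A level of 3 reads equals 0.372 RPM (ES) and 0.696 RPM (ELA) in the serum libraries and 1.08 and 5.11 RPM in the 2iL libraries. Intervals (95%) and these levels cover counting error only. No columns were left out (0).

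Groups followed titles and source names. limma 3.58.1 (R 4.3.3) was fitted to log2(RPM + 1) with stage and medium as additive terms, over the 599 miRNAs that reached 10 reads in 2 or more libraries. Tests were two-sided and adjusted after Benjamini and Hochberg. The pseudocount of 1 RPM understates changes of low miRNAs. edgeR 4.0.16 (quasi-likelihood) and DESeq2 1.42.0 (Wald) on the recovered reads, other scalings, a pseudocount of 0.5 RPM and no filter were alternatives. Folds between a pair of libraries use exact Clopper-Pearson intervals, and shares use Wilson intervals. The fit was tested on simulated data.

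Named miRNAs were the 6 members, the other arms of their hairpins, miRNAs with the same bases 2 to 8, miR-503-5p, the 3 nearest patterns and cell type markers. miR-497b was added because it overlaps miR-497a-3p. Members and lists were chosen with earlier results of these data known. Sequences are from RefSeq (GRCm38.p6), and hairpins were placed on mm9 by exact match and annotated with GENCODE M1.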

Additional observations from a re-analysis of the deposited data

Results flagged for a closer look

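The change from ES to ELA had opposite signs in the media for 4 members. It was 0.28 in serum and -1.04 in 2iL for miR-15a-5p, 0.44 and -0.62 for miR-16-5p, -0.15 and 0.59 for miR-15b-5p, and -0.14 and 0.43 for miR-497a-5p, on the log2 scale. The interval of miR-497a-5p in serum included no change. Under DESeq2 size factors the values in serum were 0.05 for miR-15b-5p and 0.06 for miR-497a-5p, so that the signs in the media were then alike, while miR-15b-3p, with -0.19 and -0.32, had 0.0030 in serum and -0.09 in 2iL.

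The difference between 2iL and serum had opposite signs at the stages for 2 members. It was -1.26 in ES cells and 0.35 in ELA cells for miR-195a-5p, and -0.14 and 0.42 for miR-497a-5p, whose interval in ES cells included no change. Under DESeq2 size factors the value of miR-195a-5p in ELA cells was -0.01. Of the 302 expressed miRNAs, 74 (24.5%) had opposite signs in this comparison. Each change compares 1 library with 1 library, and the difference between the changes was not tested for any of these members.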

How the results depend on the processing

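limma called 0 miRNAs in either contrast (smallest adjusted p = 0.133 for stage and 0.0899 for medium). It also called 0 in either contrast with DESeq2 size factors and with the pseudocount of 0.5 RPM. For stage and medium, 99 and 130 were called with no filter (1202 tested) and 45 and 74 with TMM. With totals without the 5 most abundant miRNAs 89 and 109 were called, with edgeR 39 and 64, and with DESeq2's Wald test 50 and 80. The cause was not tested. No member was called under any alternative. The smallest adjusted p of miR-16-5p for medium was 0.0701. The stage value of miR-16-5p (-0.09) became 0.088 with TMM and edgeR and 0.12 with DESeq2 size factors and DESeq2's test. The medium value of miR-497a-5p (0.14) became -0.28 with TMM and edgeR and -0.24 with DESeq2 size factors and DESeq2's test.

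With TMM, DESeq2 size factors, totals without the 5 most abundant miRNAs and the sum without miR-16-5p, the summed family's log2 difference moved as follows. For ELA minus ES in serum it went from 0.38 to 0.49, 0.58, 0.31 and -0.021. For ELA minus ES in 2iL it went from -0.55 to -0.31, -0.32, -0.31 and 0.14. For 2iL minus serum in ES it went from 1.92 to 1.43, 1.52, 1.64 and 0.83. In ELA it went from 0.99 to 0.64, 0.62 and 1.03 under the 3 scalings. Without miR-16-5p the sign between stages thus turned in 2iL, the serum libraries were level within counting error, and the level was still higher in 2iL than in serum. Of 96 alternative values of members' differences between a pair of libraries, 4 changed sign, all below the fold threshold of 1, and 8 crossed it. No paired analysis was possible because the labels carry no replicate numbers, other than the additive fit itself, which compares the stages within each medium. Each group has 1 library, so none could be left out. Depth limits ELA 2iL most, where miR-497a-5p rests on 91 reads.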
